A study of Homo sapiens with 5 samples.

Results

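WNT signalling genes were examined in poly(A+) RNA of H9 cells, an established human embryonic stem cell line, with and without editing of NUDT21, the gene that encodes the mRNA 3' processing factor CFIm25. The members were the protein-coding genes whose symbols begin with WNT, FZD, DKK or SFRP followed by a digit, together with LRP5, LRP6, AXIN1, AXIN2, CTNNB1, APC, LEF1, TCF7, TCF7L1, TCF7L2, RSPO1, RSPO2, RSPO3, LGR4, LGR5, ZNRF3 and RNF43. This rule uses names alone but was chosen with earlier results of these data known. It found 52 of the 33857 genes in the deposited table. They comprised 17 WNT ligands, 10 Frizzled (FZD) receptors, 2 LRP co-receptors, 8 secreted antagonists, 5 R-spondins and LGR receptors, 2 receptor ubiquitin ligases, 4 genes for beta-catenin or its destruction complex and 4 TCF/LEF factors. The 2 mock control samples were 2 clones of H9 cells that received the empty eCRISPR plasmid, and the 3 CFIm25-m samples were different single-cell clones that received the plasmid with gRNAs against NUDT21 near its start codon. The study selected the transfected cultures on puromycin before clones were picked. All 5 samples were cultured undifferentiated in mTeSR medium, with no later treatment described. The study describes the edited clones as knockdown lines with a mutated N-terminus of the protein, not as null lines. The 3 edited clones stand for 3 editing events, so clonal differences and the effect of editing cannot be told apart within a clone, and p-values measure the spread between these samples.

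WNT proteins are secreted ligands that bind a Frizzled receptor together with LRP5 or LRP6. Binding inactivates the destruction complex of AXIN and APC, so that beta-catenin, encoded by CTNNB1, accumulates and acts on target genes through TCF/LEF factors. DKK and SFRP proteins block the ligand or its receptors outside the cell, while R-spondins acting through LGR receptors protect Frizzled proteins from removal by the ubiquitin ligases ZNRF3 and RNF43. In human embryonic stem cells the pathway is known for its part in leaving the pluripotent state towards mesendoderm.

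The recovered library totals were between 18754108 and 23372391 reads, and a count of 0 allows up to 3 reads, which corresponds to a normalized count between 2.701 and 3.458 and covers counting error only. NUDT21 had normalized counts of 6503 and 6398 in mock control and 4035, 3281 and 3400 in CFIm25-m. Its log2 fold change was -0.86 (SE 0.11, adjusted p = 0.00431 by limma-trend, lower in 3 of 3 clones), every clone below both controls. The 8 pluripotency markers summed to 214447 and 218409 in the mock controls and to between 188945 and 202216 in the clones. None of the 8 passed the threshold in limma-trend or edgeR. Of these, 3 had an unadjusted p below 0.05 (37.5%, against 15.1% of all tested genes). DESeq2 called SALL4 at an adjusted p of 0.0231. The groups did not overlap for 7 of the 8 (87.5%, against 36.8% of all tested genes). POU5F1, TDGF1 and PODXL were higher in every clone, and NANOG, LIN28A, DNMT3B and SALL4 were lower. Log2 fold changes of the 8 lay between -0.41 and 0.21. The summed markers of primitive streak and mesoderm were between 84.2 and 110.0 over all samples for 6 of 7 listed genes, HAND1 not being in the table, those of endoderm between 30.9 and 61.1 for 6 genes, and those of trophoblast and amnion between 155.8 and 284.6 for 6 genes, of which KRT7 made up most. TBXT, EOMES, SOX17 and FOXA2, defining markers of primitive streak and endoderm, were below 10 in every sample. CXCR4 of the endoderm list was higher in every clone, with 13.8 and 4.83 in mock control and 20.0, 27.9 and 23.1 in CFIm25-m (log2 fold change 1.40, adjusted p = 0.187). Neuroectoderm markers summed to 12543 and 13275 in the mock controls and to between 10583 and 13205 in the clones, nearly all of it NES, and PAX6 stayed below 10. Of the 4 tested genes of that list 1 passed the threshold. OTX1, a forebrain gene, rose from 38.0 and 31.8 to 81.2, 74.7 and 71.2 (log2 fold change 1.10, SE 0.24, with an adjusted p that rounds to 0.05 and passed the threshold, against 0.0588 in edgeR). SOX1 of the same list was lower in every clone, with 18.4 and 20.3 in mock control and 11.0, 14.4 and 4.81 in CFIm25-m (log2 fold change -0.99, adjusted p = 0.376). LHX2 and PAX6, both below 10 in every sample and not tested, were higher in every clone. The groups overlapped for SIX3 and NES. Fibroblast markers summed to 9811 and 10346 in the mock controls and to between 7728 and 9213 in the clones, with COL3A1, DCN and LUM below 10 in every sample and COL1A1 making up most of the sum. COL1A1 was lower in every clone (log2 fold change -0.42, adjusted p = 0.0828), while COL1A2 and PDGFRB were higher in every clone (log2 fold changes 0.34 and 0.48, adjusted p = 0.113 and 0.210). The part of these markers in the results on the members was not tested, and in bulk RNA fewer cells of a type and less RNA per cell cannot be told apart.

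Of the 52 members, 39 reached a normalized count of 10 in 2 or more samples and were tested by limma-trend on log2(normalized count + 1). After adjustment by the Benjamini-Hochberg method over all 19232 tested genes, 4 of the 39 (10.3%) passed a threshold of 0.05. The receptor gene FZD2 was higher in CFIm25-m, and the receptor gene FZD7, the destruction complex gene AXIN2 and the ligand gene WNT7B were lower. Over all tested genes the share past this threshold was 1.88%, with 0.941% higher and 0.936% lower. WNT7B entered the test through its counts in mock control alone, and 3 members passed both without a filter and with a filter of 50. The edgeR quasi-likelihood test on recovered reads also called 4 members (1.81% of all genes), and the DESeq2 Wald test called 5 (3.17% of all genes), the fifth being LGR4. The median log2 fold change of the 39 members was -0.14 and that of all tested genes was -0.01. Of the 39 members, 27 (69.2%) had a log2 fold change below 0, against 51.8% of all genes. Unadjusted p-values were below 0.05 for 12 members (30.8%) and for 15.1% of all genes. The groups did not overlap for 4 members that were higher in every clone and for 12 that were lower, 16 in all (41.0%). This share is near the background, since 17.0% of all genes were higher without overlap and 19.8% lower, or 36.8% in either direction.

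**Figure D1:**
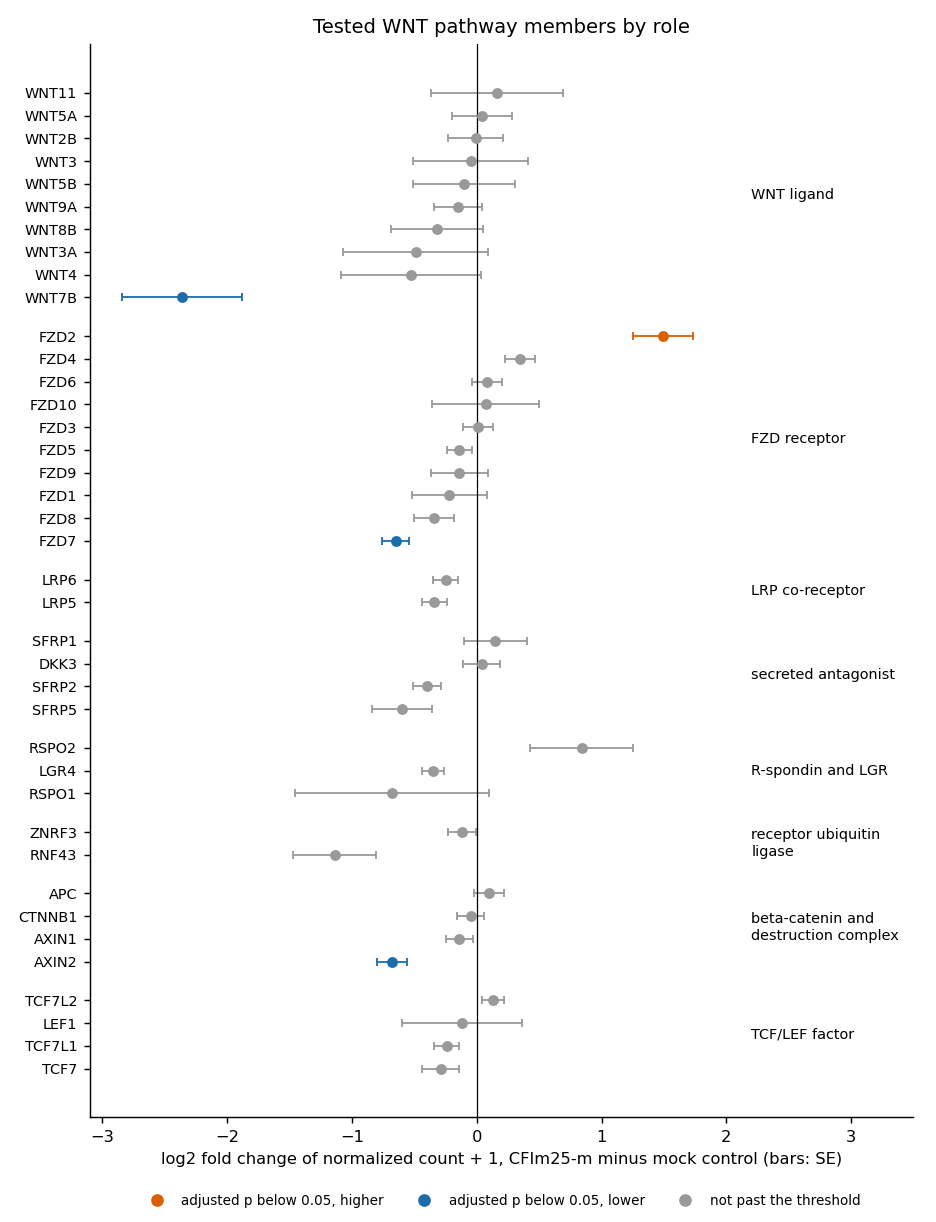
Log2 fold change of normalized count + 1 (x axis, CFIm25-m minus mock control, bars are SE) for the 39 tested members, ordered by role (y axis). FZD2 at 1.49 is the one coloured member to the right of 0, and FZD7, AXIN2 and WNT7B are the coloured members to the left.

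Among the ligands, RNA levels were low in all samples. The 17 WNT genes together summed to 105 and 127 normalized counts per kilobase of gene length in mock control and to 98.1, 111 and 103 in CFIm25-m, so the group sums overlapped. The sum over the 10 FZD genes on the same scale was between 2930 and 4345. Of the 17 ligand genes, 10 were tested, 1 was lower and 9 did not pass the threshold.

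WNT7B (ENSG00000188064, minus strand of chromosome 22 from 45920362 to 45977129 in hg38) encodes a ligand known for lung and kidney development. It had normalized counts of 27.7 and 31.8 in mock control and 5.01, 8.10 and 2.89 in CFIm25-m. All 3 clones lay below both controls, and clone 3 was at the level that a count of 3 reads gives in its library. The mean fell from 29.8 ± 2.96 (SD, n = 2) to 5.33 ± 2.62 (SD, n = 3), with a log2 fold change of -2.36 (SE 0.48, adjusted p = 0.0396 by limma-trend). WNT7B passed the filter on low values through the mock control samples alone, so the filter itself favoured a lower value in CFIm25-m for this gene. Without either mock control sample it fell below the filter and gave no value. Without CFIm25-m replicate 1 the adjusted p was 0.125 and without replicate 2 it was 0.0514. Over the 11 alternatives that gave a value the adjusted p lay between 0.00850 and 0.125. The lowest came from the fit with the replicate number as a block. This fit pairs samples of the groups by label alone and in effect drops CFIm25-m replicate 3, which has no partner.

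WNT9A, a ligand with a known part in joint formation and blood stem cell emergence, had the highest ligand level per kilobase in mock control. Its normalized counts were 130.2 and 165.0 in mock control and 146.3, 129.6 and 121.2 in CFIm25-m, and the groups overlapped (log2 fold change -0.15, SE 0.19, adjusted p = 0.736). The 8 other tested ligands that did not pass had log2 fold changes between -0.53 for WNT4 and 0.16 for WNT11, with adjusted p-values of 0.691 or more. WNT4 differed among the clones, with 44.1 and 59.4 in replicates 1 and 2 and 11.5 in replicate 3, against 42.6 and 49.2 in mock control. WNT3, a ligand of mesoderm induction, had 35.7 and 31.8 in mock control and 17.0, 33.3 and 60.6 in CFIm25-m, so its highest and lowest values were both in clones.

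The Frizzled receptors held the one member that rose and one that fell. FZD2 (ENSG00000180340, plus strand of chromosome 17 from 44557459 to 44559570 in hg38) encodes a receptor known for both beta-catenin and non-canonical signalling. It had normalized counts of 280.1 and 280.8 in mock control and 882.0, 1056 and 532.9 in CFIm25-m. The controls were nearly equal, all 3 clones lay above them, and replicate 3 was the lowest of the clones. The mean rose from 280 ± 0.530 (SD, n = 2) to 824 ± 266 (SD, n = 3), which is 2.94 times the control mean. The log2 fold change was 1.49 (SE 0.24, adjusted p = 0.0123 by limma-trend), and the single clones differed from the control mean by 1.65, 1.91 and 0.92 on the log2 scale. With a mock control sample left out, the remaining one has no spread of its own and is assumed to vary like the clones, here and for the genes below. With mock control replicate 1 left out the adjusted p was 0.0497 and with replicate 2 left out 0.0507. The adjusted p was 0.101 without CFIm25-m replicate 1, 0.0520 without replicate 2 and 3.59e-05 without replicate 3. The fold change stayed between 1.29 and 1.78 over 14 alternatives, whose adjusted p-values lay between 3.81e-18 and 0.153. The lowest came from the fit with the replicate number as a block, which pairs samples by label alone and drops CFIm25-m replicate 3.

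FZD7 (ENSG00000155760, plus strand of chromosome 2 from 202034587 to 202038445 in hg38) encodes the Frizzled receptor known for its high level in human embryonic stem cells. Its normalized counts were 12462 and 12971 in mock control and 7882, 9097 and 7354 in CFIm25-m. Every clone lay below both controls, with replicate 2 the nearest to them. The mean fell from 12717 ± 360 (SD, n = 2) to 8111 ± 893 (SD, n = 3), with a log2 fold change of -0.65 (SE 0.11, adjusted p = 0.0189 by limma-trend). By level per kilobase in mock control FZD7 ranked 188 of the 19232 tested genes, and in CFIm25-m it ranked 309. The adjusted p was 0.198 without mock control replicate 1, 0.268 without mock control replicate 2 and 0.0966 without CFIm25-m replicate 1, and the fold change stayed between -0.74 and -0.59 over 14 alternatives, whose adjusted p-values lay between 5.39e-10 and 0.268.

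**Figure D2:**
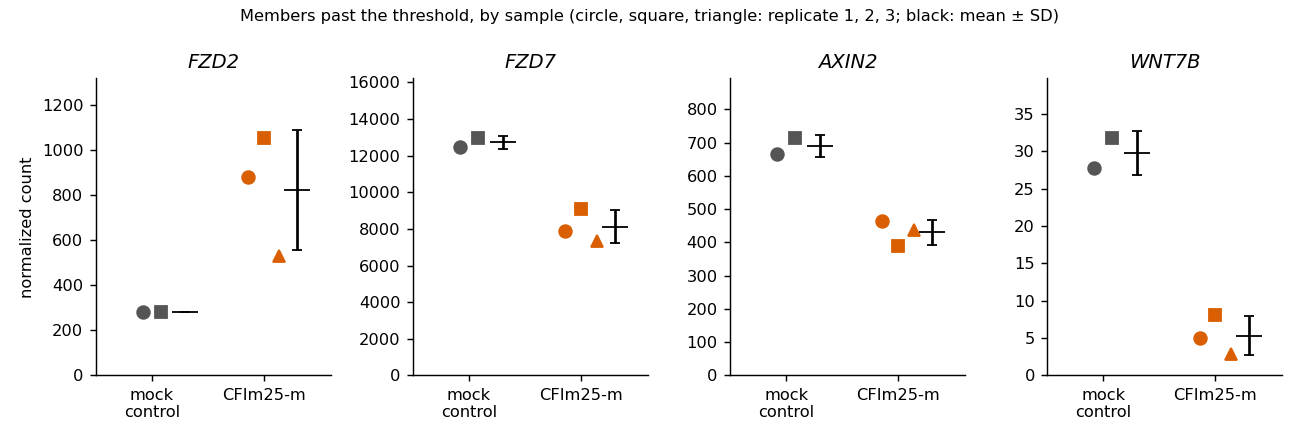
Normalized counts (y axes from 0, each panel with its own scale) of FZD2, FZD7, AXIN2 and WNT7B in the 2 mock control samples (grey) and the 3 CFIm25-m clones (orange), with circles, squares and triangles for replicates 1, 2 and 3 and black bars for mean ± SD. In each of the 4 panels the groups do not overlap, and the FZD2 clones range from 532.9 to 1056.

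Compared per kilobase of gene length, FZD7 made up 77.4% of the summed Frizzled level in both mock control samples and 63.1%, 64.1% and 65.0% in the clones. The FZD2 share was 3.18% and 3.06% in mock control and 12.9%, 13.6% and 8.61% in CFIm25-m. The level of FZD7 was 24.4 and 25.3 times that of FZD2 in mock control and 4.89, 4.71 and 7.55 times in CFIm25-m. The groups thus did not overlap in any of these 3 measures, which restate the counts of FZD2 and FZD7 and were given no test of their own. The summed level per kilobase was 4171 and 4345 in mock control and 3239, 3677 and 2930 in CFIm25-m, all clones below both controls. FZD5 made up 9.14% and 9.90% of the sum in mock control and 10.6%, 10.5% and 12.7% in the clones, so it came next after FZD7 in both controls and in clone 3, while FZD2 came next in clones 1 and 2. How reads that match more than 1 gene were counted is not given in the sources used here.

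**Figure D3:**
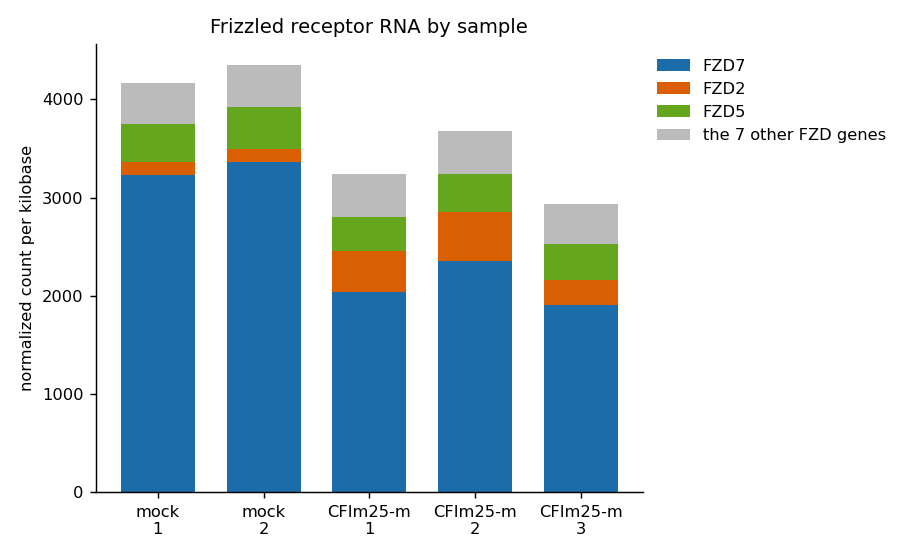
Normalized count per kilobase (y axis) of the 10 Frizzled genes in each of the 5 samples (x axis), stacked as FZD7, FZD2, FZD5 and the sum of the 7 others. FZD7 is the largest block in every bar, and the FZD2 block is larger in the 3 CFIm25-m bars than in the 2 mock control bars.

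The 8 other Frizzled genes did not pass the threshold. FZD4, the receptor known for the retinal vasculature, had the smallest adjusted p among them, with 349.2 and 310.7 in mock control and 430.0, 424.0 and 406.9 in CFIm25-m (log2 fold change 0.35, SE 0.12, adjusted p = 0.209). FZD3, FZD5 and FZD6 had log2 fold changes of 0.01, -0.14 and 0.08 with an SE of 0.12 or less. FZD1, FZD8, FZD9 and FZD10 had log2 fold changes between -0.34 and 0.07.

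Neither co-receptor passed the threshold. Every clone lay below both controls in each of them, as was the case for 19.8% of all tested genes. LRP5, which had the higher level per kilobase of the pair in mock control, had normalized counts of 2060 and 2050 in mock control and 1486, 1776 and 1628 in CFIm25-m (log2 fold change -0.34, SE 0.10, adjusted p = 0.149). LRP6 had 3094 and 3018 in mock control and 2804, 2611 and 2318 in CFIm25-m (log2 fold change -0.25, SE 0.10, adjusted p = 0.287).

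Of the 8 secreted antagonists, 4 were tested and none passed the threshold in limma-trend, edgeR or DESeq2, while 2 had an unadjusted p below 0.05. SFRP1 and SFRP2, which bind WNT proteins in the extracellular space, made up nearly all antagonist RNA. SFRP2 (ENSG00000145423) had the highest level per kilobase of all members in mock control, where it ranked 130 of 19232 genes. Its normalized counts were 9390 and 9553 in mock control and 6416, 7057 and 8108 in CFIm25-m. All clones lay below both controls, with replicate 3 the nearest (log2 fold change -0.40, SE 0.11, adjusted p = 0.120), and without replicate 3 the log2 fold change was -0.49 with an adjusted p of 0.00159. Its adjusted p was 0.266 without CFIm25-m replicate 1, 0.186 without replicate 2 and 0.309 without the mean-variance trend. The lowest over 14 alternatives, 5.17e-08, came from the fit with the replicate number as a block. This fit pairs samples by label alone and in effect drops CFIm25-m replicate 3. The log2 fold change was -0.42 without mock control replicate 1 and -0.39 without mock control replicate 2. SFRP2 passed the threshold in 2 of the 14 alternatives.

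SFRP1 (ENSG00000104332) had normalized counts of 13640 and 13718 in mock control and 19381, 18663 and 9751 in CFIm25-m. Replicates 1 and 2 lay above both controls and replicate 3 below both, so the groups overlapped (log2 fold change 0.15, SE 0.25, adjusted p = 0.806). Without replicate 3 the log2 fold change was 0.48 (adjusted p = 0.000601), and without replicate 1 it was -0.02 (adjusted p = 0.979). Over 14 alternatives its adjusted p lay between 6.54e-08 and 0.993, the lowest again in the fit with the replicate number as a block. Per kilobase, the level of SFRP1 was 0.620 and 0.613 times that of SFRP2 in mock control, 1.29 and 1.13 times in clones 1 and 2 and 0.513 times in clone 3. The order of the pair was thus turned in clones 1 and 2 and kept in clone 3.

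**Figure D4:**
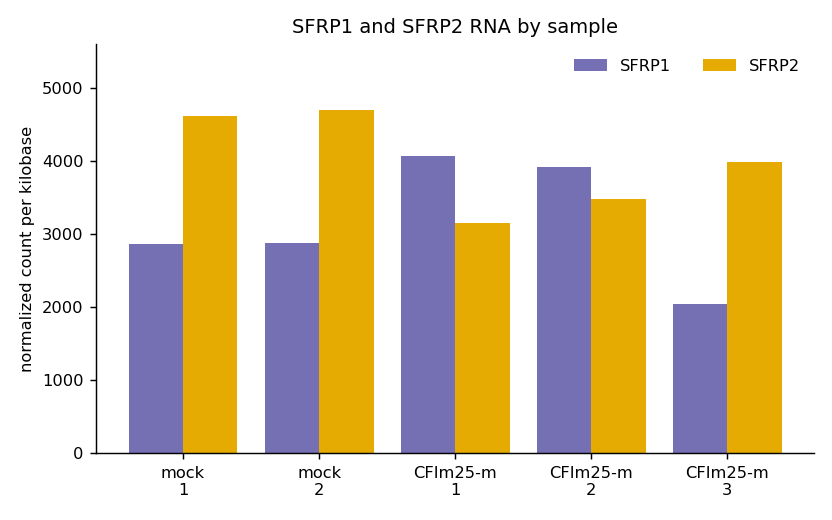
Normalized count per kilobase (y axis) of SFRP1 (purple) and SFRP2 (yellow) in each sample (x axis). SFRP2 is the taller bar in both mock control samples and in CFIm25-m replicate 3, and SFRP1 is the taller bar in CFIm25-m replicates 1 and 2.

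DKK3, an atypical member of the DKK family, had 657.0 and 653.3 in mock control and 640.4, 824.7 and 573.3 in CFIm25-m (log2 fold change 0.04, SE 0.15, adjusted p = 0.935). SFRP5 had 86.4 and 95.5 in mock control and 65.1, 68.4 and 47.1 in CFIm25-m (log2 fold change -0.60, SE 0.24, adjusted p = 0.275). DKK1, DKK2, DKK4 and SFRP4 were not tested, and none of them exceeded 9.90 in any sample.

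In the R-spondin branch, LGR4 (ENSG00000205213), the R-spondin receptor of highest level, had normalized counts of 2975 and 3118 in mock control and 2483, 2386 and 2289 in CFIm25-m. The clones were close to each other and lay below both controls. The log2 fold change was -0.35 (SE 0.09) with an adjusted p of 0.0886 in limma-trend, 0.0902 in edgeR and 0.0363 in DESeq2. The lowest adjusted p over 14 alternatives, 0.000879, came from the fit with the replicate number as a block. This fit pairs samples by label alone and in effect drops CFIm25-m replicate 3. Without CFIm25-m replicate 3 the adjusted p of LGR4 was 0.0169, against 0.145 without replicate 1 and 0.126 without replicate 2. It was 0.256 without the mean-variance trend. The log2 fold change was -0.39 without mock control replicate 1 and -0.32 without mock control replicate 2. LGR4 passed the threshold in 3 of the 14 alternatives. RSPO2, a secreted R-spondin, had 9.22 and 13.5 in mock control and 29.1, 19.8 and 15.4 in CFIm25-m (log2 fold change 0.84, SE 0.41, adjusted p = 0.370). RSPO1 had between 0.962 and 11.5 in all samples, with its lowest value in clone 3.

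Of the ubiquitin ligases that remove Frizzled receptors from the membrane, ZNRF3 had 808.0 and 801.0 in mock control and 703.6, 817.5 and 706.0 in CFIm25-m (log2 fold change -0.12, SE 0.11, adjusted p = 0.638). RNF43 was lower in each clone without passing the threshold, with 30.0 and 38.6 in mock control and 15.0, 14.4 and 15.4 in CFIm25-m (log2 fold change -1.14, SE 0.33, adjusted p = 0.137). The antisense gene TSPOAP1-AS1 overlaps RNF43 and had 17.3 and 17.4 in mock control and 16.0, 11.7 and 6.73 in CFIm25-m. The strand setting of the counting is not given in the sources used here, so reads of RNF43 and its antisense partner cannot be told apart.

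AXIN2 (ENSG00000168646, minus strand of chromosome 17 from 65528563 to 65561647 in hg38) encodes a scaffold of the destruction complex and is widely used as a readout of beta-catenin signalling. It had normalized counts of 666.2 and 714.1 in mock control and 465.0, 389.8 and 435.7 in CFIm25-m. Every clone lay below both controls, and the clones spread less than the distance between the groups. The mean fell from 690 ± 33.9 (SD, n = 2) to 430 ± 37.9 (SD, n = 3), with a log2 fold change of -0.68 (SE 0.12, adjusted p = 0.0218 by limma-trend). The adjusted p was 0.0553 without CFIm25-m replicate 1, 0.0562 without replicate 2 and 0.128 without the mean-variance trend. The lowest over 14 alternatives, 3.43e-06, came from the fit with the replicate number as a block. This fit pairs samples by label alone and in effect drops CFIm25-m replicate 3. The fold change was -0.73 without mock control replicate 1 and -0.63 without mock control replicate 2. It stayed between -0.74 and -0.61 over the 14 alternatives, and AXIN2 passed the threshold in 9 of them.

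The other genes of the destruction complex and beta-catenin itself did not pass the threshold. CTNNB1 had normalized counts of 10443 and 10712 in mock control and 10890, 10696 and 9170 in CFIm25-m (log2 fold change -0.05, SE 0.11, adjusted p = 0.862), a sign that turned to 0.03 without replicate 3. AXIN1, the scaffold closely related to AXIN2, had 1978 and 1963 in mock control and 1757, 2008 and 1605 in CFIm25-m, and the groups overlapped (log2 fold change -0.14, SE 0.11, adjusted p = 0.563). APC had a log2 fold change of 0.10 (SE 0.12, adjusted p = 0.735).

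None of the 4 TCF/LEF factors passed the threshold in limma-trend, edgeR or DESeq2. An unadjusted p below 0.05 was seen for 1 of them (25.0%, against 15.1% of all tested genes). TCF7L1, known as a repressor of WNT targets in pluripotent cells and the factor of highest level per kilobase, had 4606 and 4711 in mock control and 3499, 4238 and 4140 in CFIm25-m (log2 fold change -0.24, SE 0.10, adjusted p = 0.320). TCF7 and LEF1 had log2 fold changes of -0.29 and -0.12, and TCF7L2, with 1897 and 1896 in mock control and 2055, 2045 and 2122 in CFIm25-m, had 0.13 (SE 0.09, adjusted p = 0.514).

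The 13 members that were not tested were WNT2, WNT6, WNT7A, WNT8A, WNT9B, WNT10B, WNT16, DKK1, DKK2, DKK4, SFRP4, RSPO3 and LGR5. Their normalized counts lay between 0 and 11.5, and 7 of them were at 0 in at least 1 sample, so a difference was not detectable at this depth. LGR5, a stem cell marker of intestinal epithelium, had the highest of these values in CFIm25-m replicate 3.

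CFIm25-m replicate 3 was often the lowest of the clones. It had the lowest value of the 3 clones in 23 of the 39 tested members (59.0%), as it did in 41.3% of all tested genes. It had the highest value in 8 members (20.5%) and in 35.8% of all tested genes. The median absolute log2 difference from the mock control mean was 0.29, 0.32 and 0.36 over the members in clones 1, 2 and 3 and 0.18, 0.18 and 0.29 over all genes. With replicate 3 left out, 7 members passed the threshold, namely FZD2 and SFRP1 higher and FZD7, AXIN2, WNT7B, LGR4 and SFRP2 lower, and the number of all genes past it also rose, from 361 to 1044. With mock control replicate 1 left out only FZD2 passed, with CFIm25-m replicate 2 left out only FZD7 passed, and with mock control replicate 2 or CFIm25-m replicate 1 left out 0 members passed in limma-trend, where 3 and 12 had an unadjusted p below 0.05 in these fits.

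**Figure D5:**
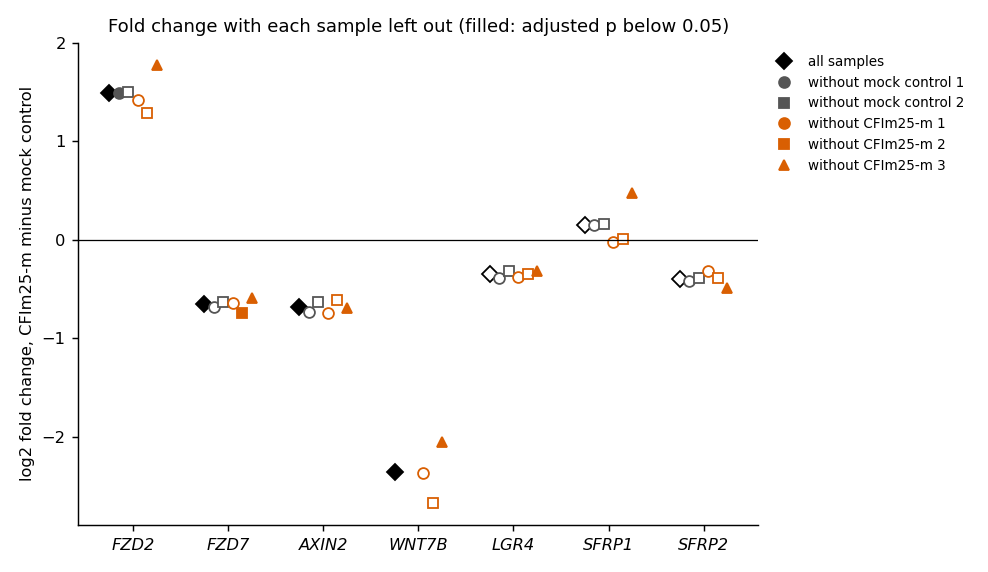
Log2 fold change (y axis, CFIm25-m minus mock control) of 7 members with all samples (diamonds) and with each sample left out in turn, filled where the adjusted p was below 0.05. FZD2, FZD7, AXIN2, WNT7B, LGR4 and SFRP2 keep their side of 0 in all fits shown, SFRP1 moves from 0.48 without CFIm25-m replicate 3 to -0.02 without replicate 1, and WNT7B has no value without either mock control sample.

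Beyond the members, 75 further genes of the pathway were in the table, and 69 of them were tested. In this set 2 were higher, 2 were lower and 65 did not pass the threshold, with a median log2 fold change of -0.03. That is 4 of 69 past the threshold, against 361 of all 19232 tested genes (1.88%). Among 12 further antagonists, 11 of them tested, KREMEN2, a co-receptor of DKK proteins, fell from 519.8 and 639.8 to 360.8, 275.5 and 362.6 (log2 fold change -0.80, SE 0.16, adjusted p = 0.0354). APCDD1, a membrane inhibitor of WNT signalling, rose from 41.5 and 48.3 to 87.2, 135.0 and 94.3 (log2 fold change 1.19, SE 0.25, adjusted p = 0.0440). In both genes the groups did not overlap, and edgeR gave adjusted p-values of 0.0411 for KREMEN2 and 0.0551 for APCDD1.

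Among 14 TCF/LEF cofactors, all tested, BCL9L, a beta-catenin co-activator, fell from 3657 and 3886 to 2709, 2786 and 2952 (log2 fold change -0.42, SE 0.09, adjusted p = 0.0485). Among 16 genes of non-canonical signalling and planar polarity, 15 of them tested, GPC4, a cell surface heparan sulphate proteoglycan that binds WNT proteins, rose from 8347 and 8354 to 11886, 14097 and 11954 (log2 fold change 0.59, SE 0.11, adjusted p = 0.0252). All 3 clones lay on one side of the controls for both genes, and edgeR gave adjusted p-values of 0.0573 for BCL9L and 0.0209 for GPC4. None of the 4 further pathway genes passed in limma-trend with either mock control sample or with CFIm25-m replicate 1 or 2 left out, where between 5 and 15 of the set had an unadjusted p below 0.05, while 8 passed without CFIm25-m replicate 3.

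No gene passed the threshold in limma-trend among 2 genes of WNT secretion, 2 further R-spondin pathway genes, 13 genes of the destruction complex and Dishevelled family, or 12 tested of 16 WNT-responsive genes. Unadjusted p-values were below 0.05 for 2 genes of the destruction complex and Dishevelled list (15.4%) and for 4 WNT-responsive genes (33.3% of those tested). The share over all tested genes was 15.1%. The edgeR test called MSX2 (adjusted p = 0.0478) and DESeq2 called SP8 (adjusted p = 0.0401). Among WNT-responsive genes MSX2, a homeobox gene, had the largest fold change, with 19.6 and 18.3 in mock control and 2.00, 3.60 and 4.81 in CFIm25-m (log2 fold change -2.21, SE 0.50, adjusted p = 0.0628), and it too passed the filter on low values through the mock control samples alone. The largest fold changes in the 3 other lists were 0.30 for WLS, the WNT transport receptor (adjusted p = 0.519), 0.51 for LGR6 (adjusted p = 0.348) and -0.32 for GSK3B, the kinase that marks beta-catenin for destruction (adjusted p = 0.180). WNT-responsive genes that were tested had log2 fold changes on both sides of 0, with 6 of 12 below it. This list does not hold AXIN2, which was counted among the members (log2 fold change -0.68). After MSX2 the smallest adjusted p-values of the list were 0.0906 for SP8 (log2 fold change 0.79), 0.113 for BMP4 (-0.83) and 0.153 for NKD1 (0.48).

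RefSeq promoters (GRCh38.p14, 250 bases before to 50 after a gene's start, the first listed start of each gene) were matched by symbol for 35 of the 52 members. FZD2, FZD7, AXIN2 and WNT7B had no entry. The 35 were searched on both strands for the TCF/LEF word CTTTGAT, for its variant CTTTGAA, for the variant CTTTGTT and for the variant CTTTGTA, and also for the TATA word TATAAA and the GC box word CCGCCC. The variant that ends in TA can share these letters with a TATA word. At least 1 of the 4 TCF/LEF words was in 2 of the 35 (5.71%) and in 13.9% of all 27305 promoters. The 3 matches, shown because they are the only stretches of member promoters that hold these letters, were in DKK1 (chr10:52314176-52314202 and chr10:52314195-52314221, plus strand, 95 and 76 bases upstream of the start) and in WNT3 (chr17:46818657-46818683, minus strand, at base 20 of the transcript), each given 5′ to 3′ with the matched letters in capitals and, within DKK1, in that order.
DKK1, first match: cctcccagcgCTTTGAAatcccatccc
DKK1, second match: cccatcccggCTTTGTTgtctccctcc
WNT3: ctcaagtggaCTTTGTTccaactattg
DKK1 was below the filter and the groups of WNT3 overlapped, so neither gene bears on the calls above. TATAAA was in 3 of the 35 (8.57%) and in 12.0% of all promoters. CCGCCC was in 27 of the 35 (77.1%) and in 44.6% of all promoters, and the median GC content was 67.0% over the 35 and 58.3% over all. A match of letters is a description and not a site.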

How the data were processed

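Poly(A+) RNA-seq of 2 mock control and 3 CFIm25-m samples of H9 cells was analysed. The authors deposited 1 table of normalized counts, each a read count over a sample-wise size factor (a signal per gene), and their processing notes name HISAT2, featureCounts (Subread), DESeq2 and hg38, with no versions. Columns with the authors' group means, fold changes and p-values (5) were not used. Values of each sample were whole multiples of 1 step within 0.001 read for 100% of values, which gave recovered reads and totals. The 19232 genes that reached a normalized count of 10 in 2 or more samples entered limma 3.58.1 (R 4.3.3, mean-variance trend) on log2(value + 1), a scale that understates changes of low genes. Benjamini-Hochberg adjustment covered all tested genes, and 0.05 was the threshold. Values per kilobase used the deposited gene lengths. The 10 arrangements of 2 against 3 samples cannot give a permutation p below 0.05. Alternatives were pseudocounts 0.5 and 5, no filter and a filter of 50, TMM scaling, no trend, edgeR 4.0.16, DESeq2 1.42.0, the replicate number as a block, and fits without each sample in turn. The tests were also run on simulated counts with 200 changed genes, each of mean 50 or more and a log2 change of 1 or 2 either way. Smaller changes, as for FZD7 and AXIN2, and genes as low as WNT7B were not covered by it.

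The members and all lists were chosen with earlier results of these data known. Members named were those past the threshold in limma-trend, edgeR or DESeq2, the highest per kilobase in mock control in each role, and those with groups that did not overlap and a log2 fold change beyond 1. Of the other pathway genes, those past the threshold or the largest change of a list were named. WNT3, WNT4, WNT11, FZD1, FZD3 to FZD6, FZD8 to FZD10, DKK1, DKK3, SFRP1, SFRP5, LRP6, RSPO1, RSPO2, AXIN1, APC, TCF7, TCF7L2, LEF1, LGR5, OTX1, SOX1, LHX2, SIX3, CXCR4, SP8, BMP4, NKD1, SALL4, LIN28A, DNMT3B, TDGF1, PODXL, COL1A1, COL1A2 and PDGFRB were named after their values were seen.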

Additional observations from a re-analysis of the deposited data

How the results depend on the processing

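Direction and side of the threshold were the same as reported in 148 of 178 fits of 13 named members under 14 alternatives. Most of these fits were of members that were not called, where the same side means not passing. Of the 4 called members, FZD2 and FZD7 each passed in 10 of 14 alternatives, AXIN2 in 9 of 14 and WNT7B in 7 of 11. Without the mean-variance trend in limma the threshold was passed by 0 members (11 at an unadjusted p below 0.05), 0 other pathway genes (12 at an unadjusted p below 0.05) and 46 of all genes, against 4, 4 and 361. DESeq2 called 610 of all genes. Over the samples left out in turn the counts lay between 0 and 7 for members, 0 and 8 for other pathway genes and 66 and 1044 for all genes. With the replicate number as a replicate block, 10 members, 14 other pathway genes and 2107 of all genes passed, and the fold change of CTNNB1 was 0.03. The numbers are shared by label alone: the correlations of deviations were 0.007 and 0.018 for samples of the same number, and the block leaves CFIm25-m replicate 3 without a partner. The block fit therefore takes nothing from that replicate. Its fold changes equal those of the fit without it, such as 1.78 for FZD2, -0.59 for FZD7 and 0.48 for SFRP1. Over the samples left out in turn, SFRP1 lay between -0.02 and 0.48, WNT9A between -0.32 and 0.02 and CTNNB1 between -0.09 and 0.03. Changes of sign were seen for 3 members that did not pass: SFRP1 at -0.02 without CFIm25-m replicate 1, CTNNB1 at 0.03 without CFIm25-m replicate 3 and WNT9A at 0.02 without mock control replicate 2. WNT7B gave no value with a filter of 50 or without either mock control sample, and without a filter its adjusted p was 0.0570. The cause of these changes was not tested, except that fewer samples entered where one was left out and in the block fit. With TMM scaling the median fold change of all genes moved by 0.0146 on the log2 scale. At these totals, members with a few reads per library could not be compared.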

Other observations

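The members differed among the clones by unequal amounts. The SD of log2(normalized count + 1) over the 3 clones was 0.18 in the median member and 0.19 in the median tested gene. The largest SDs among the members were 1.50 for RSPO1, 1.21 for WNT4 and 0.89 for WNT3, at mean normalized counts of 8.41, 41.4 and 35.7. Among more abundant members, SFRP1 had an SD of 0.56 at a mean of 15031, FZD2 an SD of 0.51 at a mean of 606 and DKK3 an SD of 0.27 at a mean of 670.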
